A study of Homo sapiens with 6 samples.

Results

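Oxygen-dependent 2-oxoglutarate dioxygenases were examined in Huh-7 cells, a human hepatocellular carcinoma line, with and without stable overexpression of RAC3, a GTP-binding switch protein related to RAC1 that acts on the actin cytoskeleton. The set held 44 genes, listed by symbol from general knowledge of the enzyme class, and all 44 were among the 20332 genes of the count table. Of these, 43 had enough reads to be tested, among 12941 genes tested in all. The remaining member, P4HA3, had 5, 0 and 2 counts in the controls and 1, 0 and 1 with RAC3 overexpression, too few for any comparison.

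The study asked which transcripts change when RAC3 is raised in liver cancer cells. Both groups were stable Huh-7 lines made with lentivirus, 3 samples carrying a negative control and 3 overexpressing RAC3, and poly(A) RNA was sequenced from each. The sources did not state whether each line was a pool or 1 clone, or whether the 3 samples of a group were separate cultures. The p-values therefore judge group differences against a spread between these samples that may be technical, and do not extend to other lines. In the genotype field, the labels of RAC3 overexpression samples 2 and 3 name RAC4 and RAC5, whereas their titles name RAC3.

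The RAC3 transcript was high in all 3 RAC3 samples. It rose from 33.3 ± 2.16 to 232.6 ± 7.11 CPM (counts scaled to library size; mean ± SD, n = 3 here and throughout). Each library held between 13855762 and 18199888 counts, so 3 counts corresponded to 0.167 to 0.215 CPM, a limit that covers counting error only. All 9 hepatocyte markers were expressed, with summed levels of 3002 to 3108 FPKM (fragments scaled to gene length and library size) in the controls and 2765 to 3136 FPKM with RAC3. ALB was the largest part of this sum, at 1418 to 1699 FPKM over all samples. In the test described below, TF and TTR were called lower, AFP, APOB and FGB higher, and the other 4 were not called. The 5 endothelial markers summed to at most 1.22 FPKM in any sample, and the 6 leukocyte markers to 29.6 to 35.2 FPKM in the controls and 29.8 to 30.4 FPKM with RAC3.

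These enzymes hold an iron atom and split molecular oxygen, spending 2-oxoglutarate from the citric acid cycle and releasing succinate and carbon dioxide. The family hydroxylates the hypoxia-inducible factors (HIF), which marks the HIF alpha subunits for destruction when oxygen is present, hydroxylates collagen, and removes methyl groups from histones, DNA and RNA. Several of its genes are themselves HIF targets, so hypoxic cells make more of the enzymes that need the missing oxygen. From general knowledge, 9 members were taken as hypoxia-responsive: EGLN1, EGLN3, KDM3A, KDM4B, KDM4C, P4HA1, P4HA2, PLOD1 and PLOD2. The list was chosen with earlier results of these data known, so its contrast with the other members is only a description.

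RAC3 overexpression was accompanied by lower expression of most hypoxia-responsive dioxygenase genes, while the rest of the family showed no common direction. KDM4B and KDM3A, which remove methyl groups from repressive histone marks, were lower: KDM4B fell by 35.5% and KDM3A fell by 32.2%. PLOD2 and P4HA1, which hydroxylate collagen lysine and proline, were lower too: PLOD2 fell by 26.3% and P4HA1 fell by 25.7%. EGLN3, a HIF prolyl hydroxylase, fell by 21.2%, and PLOD1 fell by 18.2%. In bulk RNA, fewer expressing cells and less RNA per cell cannot be told apart. EGLN2, the prolyl hydroxylase that is not on the hypoxia-responsive list, rose by 20.5%.

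In edgeR's quasi-likelihood test, 11 of the 43 members tested were lower and 3 higher at a Benjamini-Hochberg adjusted p below 0.05, that is 25.6% and 6.98%. Over all genes tested, 15.3% were lower and 13.3% higher by the same rule, 28.5% in all. All 3 RAC3 samples lay below all controls for 12 members and above them for 8, against 21.6% and 20.9% of all genes. Among the 9 hypoxia-responsive members, 6 were lower, none was higher and 3 were not called. Among the 34 other members tested, 5 were lower, 3 were higher and 26 were not called, so their share of lower calls, 14.7%, was close to that of all genes. The median log2 fold change was -0.34 for the hypoxia-responsive members, -0.06 for the others and 0.0036 for all genes. A stricter list of 7 hypoxia-responsive members gave 5 lower calls (median -0.43) and a broader one of 13 gave 8 (median -0.29). The broader list added KDM2B, KDM5B, KDM5C and KDM6B. Of these, KDM5B and KDM6B were lower and are counted above among the 5 lower other members. All of these lists were chosen with earlier results of these data known, and the contrast between lists was not tested. The changes were moderate. Past a fold of 1.5 with an unadjusted p below 0.05, only KDM4B was lower (with the GC trend removed, KDM3A and PLOD2 instead) and no member was higher, against 2.99% and 1.68% of all genes. Without the fold limit, 12 members were lower and 7 higher at an unadjusted p below 0.05, against 20.3% and 19.0% of all genes, and DESeq2 and limma-voom also placed no member higher past the fold.

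**Figure D1:**
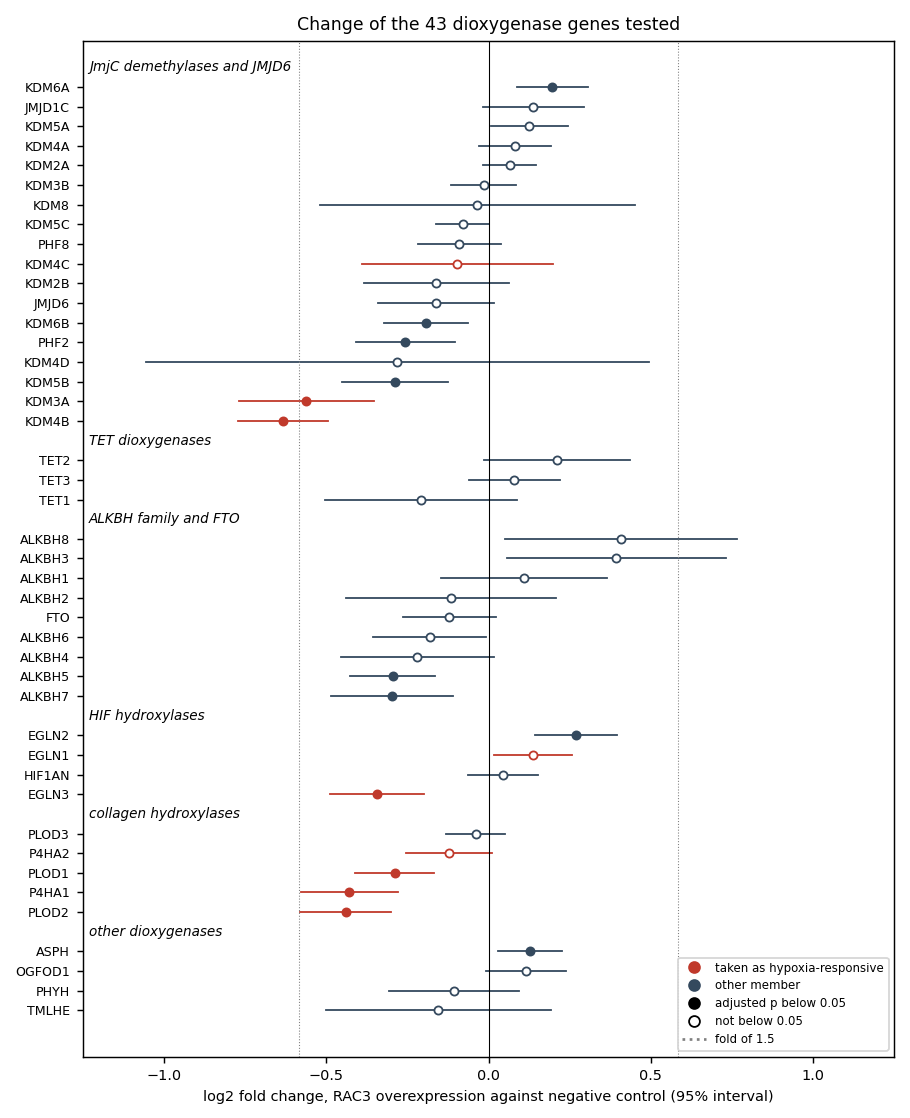
Log2 fold change of each of the 43 members tested, RAC3 overexpression against negative control, grouped by enzyme role; points are edgeR estimates, bars are 95% intervals and filled points have an adjusted p below 0.05. Of the 9 hypoxia-responsive members, drawn in red, 8 lie below 0, and EGLN1 lies above it.

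The core of a hypoxia response element, the DNA motif bound by HIF, was searched in the 250 bases before each RefSeq start (GRCh38.p14) as ACGTG or GCGTG on both strands. The windows below are shown because they precede the 5 most reduced hypoxia-responsive members and EGLN1, the hypoxia-responsive member whose estimate was above 0. Each is written 5′ to 3′ on the strand of its gene, and capitals mark a match, read as CACGT or CACGC where it lies on the opposite strand.
KDM4B, chr19:4968863-4969112, plus strand: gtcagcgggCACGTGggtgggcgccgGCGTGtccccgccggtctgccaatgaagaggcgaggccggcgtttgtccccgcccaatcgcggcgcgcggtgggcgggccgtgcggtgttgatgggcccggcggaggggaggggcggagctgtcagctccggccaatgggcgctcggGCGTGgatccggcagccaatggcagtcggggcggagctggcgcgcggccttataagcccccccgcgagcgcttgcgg
KDM3A, chr2:86441121-86441370, plus strand: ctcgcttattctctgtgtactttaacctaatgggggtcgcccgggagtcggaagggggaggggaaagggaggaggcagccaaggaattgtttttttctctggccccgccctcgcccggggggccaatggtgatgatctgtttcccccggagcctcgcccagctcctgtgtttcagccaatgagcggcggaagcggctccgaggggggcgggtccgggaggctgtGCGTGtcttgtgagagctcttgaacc
PLOD2, chr3:146161185-146161434, minus strand: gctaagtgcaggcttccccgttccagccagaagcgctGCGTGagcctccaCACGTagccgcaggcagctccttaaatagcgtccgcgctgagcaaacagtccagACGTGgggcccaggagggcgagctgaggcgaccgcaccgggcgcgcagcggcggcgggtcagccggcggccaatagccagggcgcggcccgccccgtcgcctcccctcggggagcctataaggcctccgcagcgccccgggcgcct
P4HA1, chr10:73096867-73097116, minus strand: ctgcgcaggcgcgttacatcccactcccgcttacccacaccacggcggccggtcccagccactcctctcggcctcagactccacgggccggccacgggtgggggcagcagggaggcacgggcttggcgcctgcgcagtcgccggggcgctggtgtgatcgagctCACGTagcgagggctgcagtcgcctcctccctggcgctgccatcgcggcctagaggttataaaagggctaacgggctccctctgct
EGLN3, chr14:33951075-33951324, minus strand: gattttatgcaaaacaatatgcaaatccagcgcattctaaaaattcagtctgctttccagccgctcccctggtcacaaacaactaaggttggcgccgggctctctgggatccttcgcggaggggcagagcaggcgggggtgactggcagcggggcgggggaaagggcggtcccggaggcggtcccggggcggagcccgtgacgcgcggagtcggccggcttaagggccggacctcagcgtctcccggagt
EGLN1, chr1:231422288-231422537, minus strand: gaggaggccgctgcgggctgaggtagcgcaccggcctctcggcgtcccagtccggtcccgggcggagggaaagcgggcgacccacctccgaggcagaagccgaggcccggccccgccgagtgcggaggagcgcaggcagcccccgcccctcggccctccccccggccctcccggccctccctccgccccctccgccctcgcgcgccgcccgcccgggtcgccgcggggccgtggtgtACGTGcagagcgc

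KDM4B had 4 matches, of which a palindromic CACGTG far upstream gave 1 on each strand. PLOD2 had 3, and KDM3A, P4HA1 and EGLN1 had 1 each. EGLN3 had none in this window, which says only that these letters do not occur there. KDM3A has a second RefSeq window, which also held 1 match. In all, a match stood in the windows of 7 of 9 hypoxia-responsive members (77.8%) and 20 of 32 other members (62.5%), whereas 64.9% of tested genes with a window had one, as did 43.2% of all 35116 RefSeq windows. The ACGTG form alone stood in 5 of 9 hypoxia-responsive members (55.6%), 6 of 32 others (18.8%) and 28.8% of tested genes. Members that fell held a match in 8 of 11 cases and those that were not lower in 19 of 30. Split the same way, ACGTG alone stood in 27.3% of the lower members and 26.7% of those not lower, and within the hypoxia-responsive list in 3 of the 6 lower members and 2 of the 3 not lower.

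**Figure D2:**
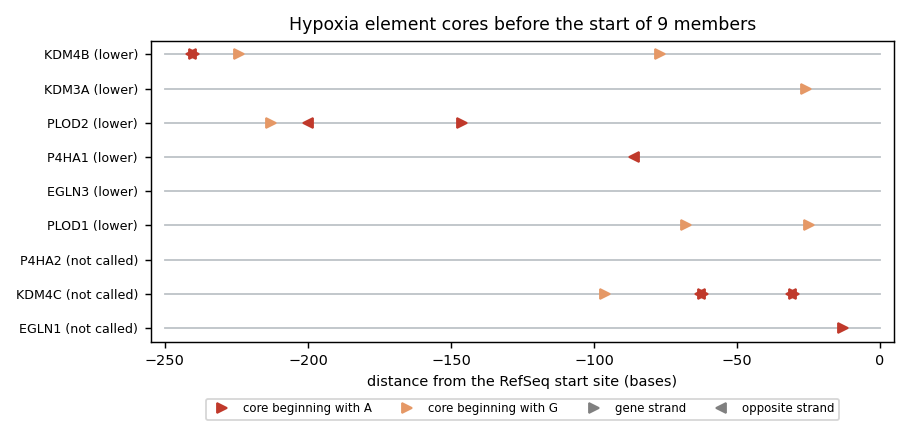
Positions of the ACGTG (red) and GCGTG (orange) matches in the 250 bases before the RefSeq start of each hypoxia-responsive member, with right-pointing marks on the strand of the gene and left-pointing marks on the opposite strand; the x axis is the distance from the start in bases. KDM4B, with 4 matches, was lower, KDM4C, with 5, was not called, and EGLN3, with 0, was lower.

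HIF hydroxylases comprise the prolyl hydroxylases EGLN1, EGLN2 and EGLN3 (also called PHD2, PHD1 and PHD3), whose product is recognised by the VHL ubiquitin ligase, and the asparaginyl hydroxylase HIF1AN (FIH), which blocks HIF from its coactivators. The 3 prolyl hydroxylases took different courses. EGLN3 (ENSG00000129521; GRCh38 chromosome 14, 33924231 to 34462774) was at 79.3, 67.9 and 66.0 CPM in the controls and at 55.3, 53.9 and 58.6 CPM with RAC3 overexpression. All 3 RAC3 samples lay below all controls, with a log2 fold change of -0.34 (SE 0.069, edgeR adjusted p = 0.00108). EGLN2 (chromosome 19, 40798996 to 40808433) was at 56.7, 58.3 and 58.4 CPM in the controls and at 65.1, 73.4 and 70.8 CPM with RAC3. Every RAC3 sample lay above every control, and the log2 fold change was 0.27 (SE 0.061, edgeR adjusted p = 0.00263). EGLN2 shares 2012 exonic bases on the same strand with a readthrough gene that joins it to RAB4B, so part of its reads could have been divided between both and its value is uncertain.

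EGLN1, the main oxygen sensor of most cells, was not called. It was at 226, 189 and 193 CPM in the controls and at 228, 214 and 225 CPM with RAC3. The groups overlapped because control 1 lay among the RAC3 samples. The log2 fold change of 0.14 (95% interval 0.02 to 0.26) missed the threshold (edgeR adjusted p = 0.0820), but without control 1 it was 0.22 (adjusted p = 0.00200), and with scaling by library size alone 0.19 (adjusted p = 0.0118). HIF1AN was at 96.9 ± 1.84 CPM in the controls and 100.04 ± 3.26 CPM with RAC3, a log2 difference of 0.05 (95% interval -0.06 to 0.15).

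The weight of EGLN3 within the prolyl hydroxylases changed as well. On the FPKM scale, which allows levels of different genes to be compared, EGLN1 was the most abundant at 55.4 FPKM in the controls, ahead of EGLN3 at 35.5 and EGLN2 at 27.5 FPKM. With RAC3 the order of the lower pair turned, with EGLN2 at 35.6 and EGLN3 at 26.8 FPKM. EGLN3 held 29.9 ± 1.10% of the summed FPKM of the 3 genes in the controls and 21.6 ± 1.01% with RAC3, and the groups did not overlap. The summed level itself was 118.4 ± 10.9 FPKM in the controls and 123.9 ± 3.10 FPKM with RAC3, with overlapping values.

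Collagen hydroxylases act in the endoplasmic reticulum, where P4HA1, P4HA2 and P4HA3 are the catalytic subunits of prolyl 4-hydroxylase, which stabilises the triple helix, and PLOD1, PLOD2 and PLOD3 hydroxylate lysine for cross-linking. Of the 5 tested, 3 were lower, none was higher, and all had a negative estimate. PLOD2 (ENSG00000152952; chromosome 3, 146069440 to 146163653) was at 129, 117 and 105 CPM in the controls and at 90.5, 80.5 and 87.0 CPM with RAC3. The groups were clearly apart, with a log2 fold change of -0.44 (SE 0.067, edgeR adjusted p = 8.09e-05). P4HA1 (ENSG00000122884; chromosome 10, 73007217 to 73096974) was at 69.9, 72.1 and 62.4 CPM in the controls and at 55.4, 47.8 and 48.2 CPM with RAC3. Its groups did not overlap either, and the log2 fold change was -0.43 (SE 0.071, edgeR adjusted p = 0.000182).

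PLOD1 (chromosome 1, 11934205 to 11975538) was at 222, 195 and 183 CPM in the controls and at 162, 168 and 160.4 CPM with RAC3. It fell by 0.29 on the log2 scale (SE 0.058, edgeR adjusted p = 0.00108), without overlap. With the GC trend removed its log2 fold change was -0.14 (adjusted p = 0.0393). The 2 other tested collagen hydroxylases did not pass the test. P4HA2 was at 121, 106 and 99.0 CPM in the controls and at 103, 99.2 and 96.3 CPM with RAC3, so the groups overlapped (log2 difference -0.12, 95% interval -0.26 to 0.01), and it was called lower only without control 3 (-0.19, adjusted p = 0.0361). PLOD3, which is not on the hypoxia-responsive list, had the highest level of all 44 members, 113.9 FPKM in the controls and 116.0 FPKM with RAC3, and a log2 difference of -0.04 (95% interval -0.13 to 0.05). With the GC trend across genes removed, PLOD3 was instead called higher (log2 fold change 0.14, adjusted p = 0.00494).

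JmjC demethylases remove methyl groups from histone lysines, and the 18 members with this fold, JMJD6 included, gave 5 lower and 1 higher call. KDM4B (ENSG00000127663; chromosome 19, 4969113 to 5153595), which acts on trimethylated histone H3 lysine 9, showed the largest fall of all members tested, except with the GC trend removed, where its log2 fold change of -0.46 was smaller than those of KDM3A, PLOD2 and P4HA1 (-0.66, -0.63 and -0.55). It was at 185, 156 and 147 CPM in the controls and at 105, 105 and 104 CPM with RAC3. The RAC3 samples lay almost on one value, below every control, with a log2 fold change of -0.63 (SE 0.066, edgeR adjusted p = 1.35e-06). KDM3A (ENSG00000115548; chromosome 2, 86440647 to 86492716), which acts on the mono- and dimethylated forms of the same residue, was at 63.3, 53.0 and 43.5 CPM in the controls and at 33.4, 37.8 and 36.7 CPM with RAC3. The controls were widely spread, but all RAC3 samples were below them (log2 fold change -0.56, SE 0.099, edgeR adjusted p = 0.000325).

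The closest relatives of both genes were not called. KDM4A, the other abundant KDM4 enzyme, was at 97.7 ± 4.12 CPM in the controls and 103.3 ± 2.49 CPM with RAC3 (log2 difference 0.08, 95% interval -0.03 to 0.19). It shares 2077 exonic bases with another protein-coding gene on the same strand and 464 with an antisense gene, so its value, and any ratio or share that uses it, is uncertain. KDM3B was at 164.5 ± 6.89 CPM in the controls and 162.8 ± 3.98 CPM with RAC3 (log2 difference -0.02, 95% interval -0.11 to 0.08). KDM4C, which is on the hypoxia-responsive list, was scarce, at 14.3, 11.7 and 9.87 CPM in the controls and 9.79, 12.5 and 11.1 CPM with RAC3. Its values overlapped and its interval was wide (log2 difference -0.10, 95% interval -0.39 to 0.20). On the FPKM scale, KDM4B held 50.8 ± 2.31% of the summed KDM4 level in the controls and 39.1 ± 0.968% with RAC3, and KDM4A replaced it as the most abundant KDM4 transcript. The sum of the 4 KDM4 genes was 58.1 ± 4.21 FPKM in the controls and 50.1 ± 1.04 FPKM with RAC3, without overlap.

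Outside the hypoxia-responsive list, 3 demethylase genes were lower and 1 was higher, each by less. Of the lower ones, KDM5B and KDM6B are on the broader hypoxia-responsive list. KDM5B, which removes the active mark of histone H3 lysine 4, was at 74.4, 61.6 and 59.0 CPM in the controls and at 49.3, 54.3 and 56.0 CPM with RAC3 (log2 fold change -0.29, edgeR adjusted p = 0.00945). The call was lost without control 1 and without RAC3 sample 1. PHF2, an H3 lysine 9 demethylase that binds active promoters, was at 47.6, 47.5 and 51.2 CPM in the controls and at 38.4, 39.0 and 45.5 CPM with RAC3 (log2 fold change -0.26, edgeR adjusted p = 0.0128). It lost its call without control 3, without RAC3 sample 1 or 2, and with the GC trend removed.

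The 2 members that demethylate the Polycomb mark on H3 lysine 27 had opposite signs. KDM6A (UTX; chromosome X, 44873177 to 45112602) was at 81.8, 85.4 and 81.4 CPM in the controls and at 96.7, 93.1 and 94.97 CPM with RAC3, all above the controls (log2 fold change 0.20, edgeR adjusted p = 0.00843). KDM6B (JMJD3) was at 84.5, 77.4 and 72.5 CPM in the controls and at 70.2, 68.0 and 66.4 CPM with RAC3, all below the controls (log2 fold change -0.19, edgeR adjusted p = 0.0246). With the GC trend removed neither was called, at 0.12 for KDM6A and -0.0034 for KDM6B. The KDM6B call was also lost without control 1, control 2, RAC3 sample 2 or RAC3 sample 3, and when libraries were scaled by size alone. The 10 remaining demethylase genes outside the list, together with JMJD6, were not called. Among them KDM2A, a CpG island-binding demethylase, and KDM5C were the most abundant, at 89.6 and 76.0 FPKM in the controls, and their log2 differences were 0.06 and -0.08. KDM4D, at 0.384 FPKM, was the least abundant tested member and had the widest interval (-1.05 to 0.49).

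TET enzymes oxidise 5-methylcytosine in DNA, and none of the 3 passed the test. TET3 was the most abundant at 4.22 FPKM in the controls, against 1.33 FPKM for TET2 and 1.18 FPKM for TET1. TET2 was at 13.7, 12.9 and 11.99 CPM in the controls and at 15.4, 15.1 and 13.9 CPM with RAC3, so the groups did not overlap, but the interval of its log2 difference of 0.21 held 0 (-0.01 to 0.43). The log2 differences of TET1 and TET3 were -0.21 and 0.08.

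Most of the better known ALKBH proteins, and FTO, remove alkyl groups from nucleic acids, whereas ALKBH7 is a mitochondrial member that acts in programmed necrosis. Of the 9 genes, 2 were lower and none was higher. ALKBH5 (ENSG00000091542; chromosome 17, 18183078 to 18209954), an eraser of N6-methyladenosine in RNA, was at 184, 154 and 150.1 CPM in the controls and at 129, 132 and 135 CPM with RAC3. All RAC3 samples lay below the controls, with a log2 fold change of -0.30 (SE 0.063, edgeR adjusted p = 0.00159). ALKBH5 is also known as hypoxia-induced, but it was not on the list and is counted with the other members. It shares 357 exonic bases with an antisense gene, and no strand-specific protocol is named in the labels, so reads of the pair cannot be told apart. The same holds for P4HA1 and ALKBH7, over 47 and 104 bases shared with a gene on the opposite strand. Members not called had such overlaps too, among them P4HA2 (548 bases), PLOD3 (429 bases with ZNHIT1) and HIF1AN (325 bases with NDUFB8).

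FTO, the other eraser of that RNA mark, was at 49.4 ± 3.94 CPM in the controls and 45.4 ± 1.54 CPM with RAC3 (log2 difference -0.12, 95% interval -0.26 to 0.02). ALKBH7 was at 25.8, 28.7 and 27.3 CPM in the controls and at 19.7, 23.9 and 23.1 CPM with RAC3 (log2 fold change -0.30, edgeR adjusted p = 0.0176). The ALKBH7 call was lost without control 2, without RAC3 sample 1 and with the GC trend removed. ALKBH3, which repairs alkylated DNA and RNA, and ALKBH8, which modifies wobble uridines of tRNA, had the largest positive differences of all members, 0.39 and 0.41 on the log2 scale. Both were scarce, at 5.41 and 4.95 CPM in the controls, and missed the threshold (edgeR adjusted p = 0.0747 and 0.0812), although no RAC3 sample overlapped the controls. With scaling by library size alone both were called (adjusted p = 0.0410 and 0.0459), and ALKBH3 also with the length trend removed (adjusted p = 0.0408).

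Of the 4 members with other substrates, ASPH, which hydroxylates aspartate and asparagine of EGF-like domains, was at 145, 151 and 144 CPM in the controls and at 166, 158 and 158 CPM with RAC3. The groups did not overlap (log2 fold change 0.13, edgeR adjusted p = 0.0459), but ASPH shares 1090 exonic bases with CLVS1 on the opposite strand. Its call was lost on leaving out any 1 sample, and with the GC trend removed the value was -0.0024. The call was also lost with the length trend removed, with the replicate number as a block, and when only genes with no count were filtered out. OGFOD1, a prolyl hydroxylase of a ribosomal protein, TMLHE, the first enzyme of carnitine synthesis, and PHYH, which starts the breakdown of phytanic acid in peroxisomes, were not called, with log2 differences of 0.12, -0.15 and -0.11.

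**Figure D3:**
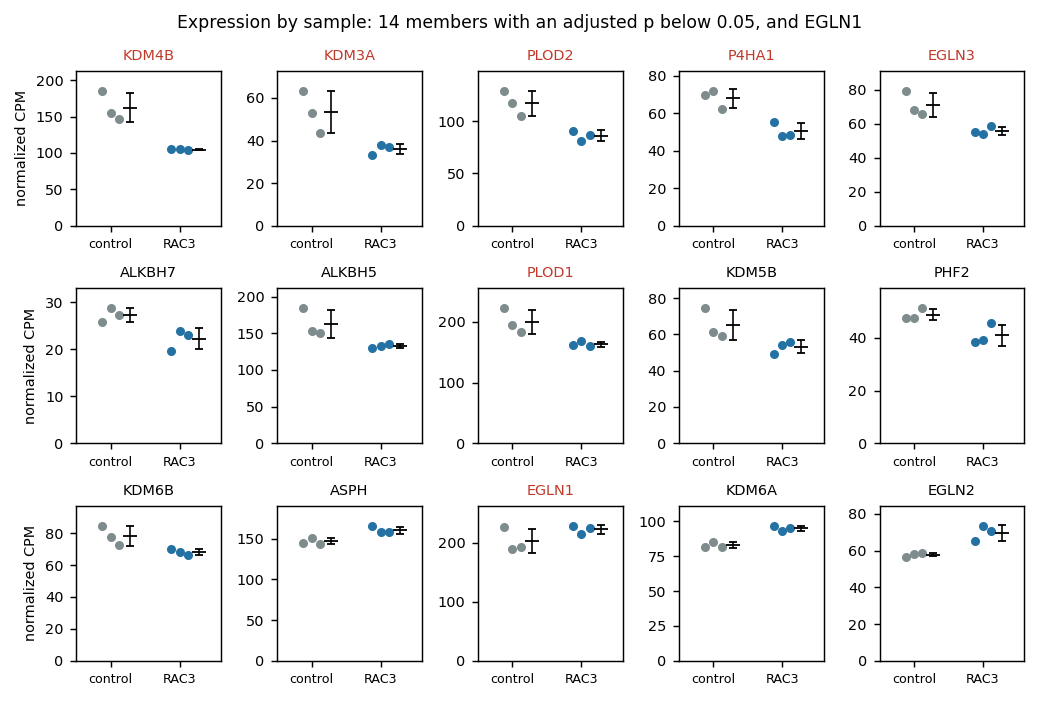
Normalized CPM in each sample for the 14 members called and for EGLN1, with controls in gray and RAC3 overexpression in blue, samples 1 to 3 from left to right and bars for mean ± SD; red titles mark hypoxia-responsive members and every y axis starts at 0. The RAC3 samples lie below all controls in 11 panels and above them for ASPH, KDM6A and EGLN2, while control 1 of EGLN1 lies within the RAC3 range.

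Each library was then described by the median level of the members relative to the mean of the controls, on the log2(CPM + 0.5) scale. For the 9 hypoxia-responsive members this median was 0.16, -0.03 and -0.13 in controls 1, 2 and 3 and -0.30, -0.39 and -0.31 in the RAC3 samples. The RAC3 samples were all below the lowest control. For the 34 other members it was -0.02, 0.02 and -0.04 in the controls and -0.02, -0.03 and 0.01 with RAC3, so the groups overlapped fully.

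The controls were not uniform for the hypoxia-responsive members. Control 1 was the highest of all 6 samples in 7 of 9 hypoxia-responsive members (77.8%), in 10 of 34 others (29.4%) and in 24.2% of all genes. Among the controls alone, sample 1 was highest and sample 3 lowest for 7 of the 9 and 10 of the 34, against 19.4% of all genes. For 22 other known hypoxia-induced genes this order held in 22 of 22, with medians of 0.35, -0.03 and -0.29 in controls 1, 2 and 3. Without control 1, 6 hypoxia-responsive members were still lower, with a median log2 fold change of -0.26. Without control 3, 7 were lower and the median was -0.40. In these fits 2863 of 13114 and 3243 of 13061 genes were called in either direction. No member passed the fold of 1.5 without control 1, where KDM4B had a log2 fold change of -0.53.

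**Figure D4:**
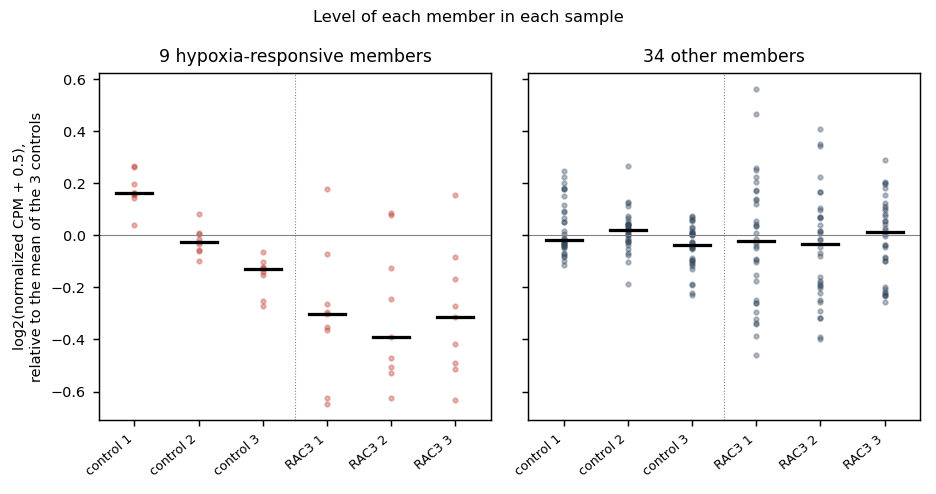
Level of each member in each sample as log2(CPM + 0.5) relative to the mean of the 3 controls, for the 9 hypoxia-responsive members (left) and the 34 others (right); each point is a gene and each bar the median of the sample. The left medians step from 0.16 to -0.13 over the controls and lie between -0.30 and -0.39 with RAC3, whereas the right medians stay between -0.04 and 0.02.

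Ratios between paralogs within each library do not depend on how libraries are scaled, so 7 hypoxia-responsive members were set against a relative outside the list. The EGLN3/EGLN2 count ratio was 0.48, 0.22 and 0.17 on the log2 scale in the controls and -0.23, -0.45 and -0.27 with RAC3, so that EGLN3 had more counts than EGLN2 in every control and fewer in every RAC3 sample. The mean difference was -0.61, which includes the rise of EGLN2 by 0.27 on the log2 scale. KDM4B/KDM4A fell from 1.00, 0.63 and 0.55 in the controls to -0.02, 0.03 and 0.04 with RAC3, a difference of -0.71. The differences were -0.54 for KDM3A/KDM3B, -0.40 for PLOD2/PLOD3 and -0.25 for PLOD1/PLOD3. In these 5 pairs the groups did not overlap, with an exact two-sided permutation p of 0.10. That is the smallest p that 3 against 3 samples allow, so none of the 7 comparisons can pass 0.05. Each numerator of these pairs was itself called lower without overlap, so the ratios draw on the same counts and are not separate support. The share of non-overlapping ratios over other gene pairs was not computed, whereas 21.6% of single genes lay below all controls. EGLN2, KDM4A and PLOD3 share exonic bases with other genes, so ratios that use them are uncertain. EGLN1/EGLN2 differed by -0.13 (exact permutation p = 0.40) and KDM4C/KDM4A by -0.18 (exact permutation p = 0.50), both with overlap.

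**Figure D5:**
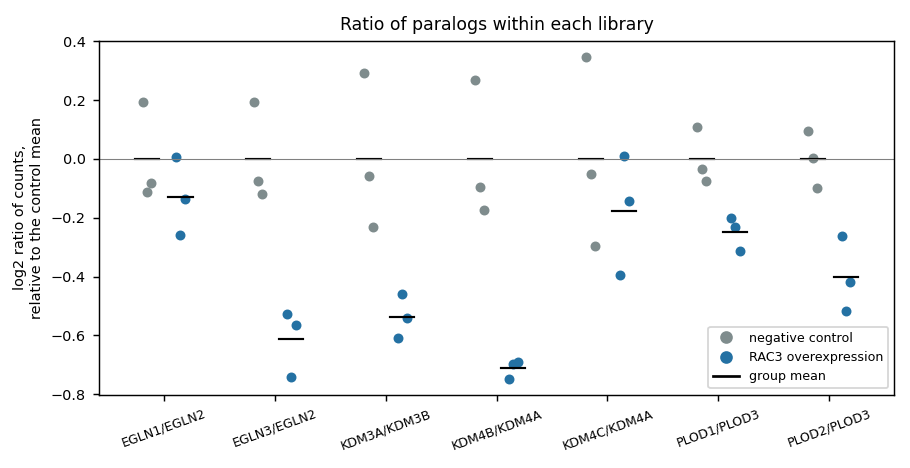
Log2 ratio of the counts of a hypoxia-responsive member to those of a paralog outside the list, in each library and relative to the control mean; gray points are controls, blue points RAC3 overexpression and bars group means. The blue points lie below all gray ones in 5 of 7 pairs, with the largest difference, -0.71, for KDM4B/KDM4A.

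The genes around these enzymes were described from lists written from general knowledge, with earlier results of these data known. Of 12 genes for HIF subunits and the VHL complex, 3 were lower and 1 was higher, with a median of 0.0048. HIF1A was at 599 ± 28.8 CPM in the controls and 629 ± 52.2 CPM with RAC3, EPAS1 (HIF-2 alpha) at 338 ± 4.76 and 340.1 ± 6.498 CPM, and VHL at 109 ± 6.07 and 109.7 ± 4.08 CPM, none called. These 3 genes, which fall outside the naming rule, were chosen after their values were seen. HIF3A, a scarce alpha subunit, fell from 3.09 ± 0.740 to 1.54 ± 0.251 CPM. Of the 22 other hypoxia-induced genes tested, 19 were lower and none was higher (median -0.62), and 11 passed the fold of 1.5. CA9, a carbonic anhydrase, fell from 4.18 ± 0.0987 to 0.716 ± 0.178 CPM (log2 fold change -2.55), and its controls were alike. PFKFB4, which sets the level of a glycolytic activator, was at 87.3, 36.7 and 19.7 CPM in the controls and at 10.02, 9.78 and 8.94 CPM with RAC3. SLC2A1, a glucose transporter, was at 165, 92.5 and 72.2 CPM in the controls and at 43.7, 47.9 and 40.5 CPM with RAC3. For both the spread of the controls exceeded that of any member called, while MXI1 and BNIP3 had log2 fold changes of -1.301 and -0.85.

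Genes that make or use 2-oxoglutarate, succinate or fumarate, the cosubstrate and inhibitors of these enzymes, gave 5 lower and 1 higher of 19 (median -0.06). PSAT1, which forms 2-oxoglutarate in serine synthesis, fell from 498.7 ± 16.8 to 327.7 ± 6.30 CPM and was the only one past the fold. IDH2, from the same list but outside the naming rule, fell from 366.3 ± 22.5 to 244.6 ± 6.52 CPM. Its log2 fold change of -0.582 was just short of the fold, whose log2 is 0.585. Of 21 collagen chains and collagen-modifying partners, the substrates and helpers of the P4HA and PLOD enzymes, 7 were lower and 3 higher (median -0.12). COL4A2, a basement membrane chain with at most 59 counts in any sample, passed the fold, falling from 3.15 to 1.53 CPM. COL4A1, a more abundant chain outside the naming rule, rose from 26.6 to 37.2 CPM. The 2 further higher genes, also outside that rule, were COL1A2 and COL12A1, with log2 fold changes of 0.51 and 0.31. The summed level of the 8 fibroblast and stellate markers, 3 of them collagen genes, was 76.5 to 82.2 FPKM in the controls. With RAC3 it was 90.2 to 96.5 FPKM, and its part in the collagen-related values was not tested. LUM made up most of this sum, at 53.1 to 71.2 FPKM over all samples. Of the 6 markers tested, LUM and COL1A2 were higher, COL1A1 was lower, and COL3A1, PDGFRB and DES were not called. DCN and ACTA2 had too few counts to be tested.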

How the data were processed

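Gene counts and FPKM values of 6 samples were used as the authors deposited them. Per the labels, the submitters' processing notes name Bowtie2 2.2.8, HISAT2, StringTie 1.3.1 and DESeq2. The genome build, annotation and counter are not given in the sources used here. The deposited FPKM, normalized by the authors for length and depth, served only for levels and shares between genes: the lengths they imply differed between samples by up to 1.47 times for a member. The deposited count matrix was filtered with filterByExpr, scaled by TMM and tested across 12941 genes with edgeR 4.0.16 (quasi-likelihood F test, Benjamini-Hochberg adjustment, R 4.3.3), after tests on simulated data. CPM are TMM-normalized. DESeq2 1.42.0, limma-voom 3.58.1, other scalings, filters, GC and length corrections and leaving out each sample were alternatives. Positions are from GENCODE 29 by identifier (20113 of 20332 matched), and promoters from RefSeq (GRCh38.p14), found for 41 members. In GENCODE 29, 21 members share exonic bases with another gene. Paralog pairs with P4HA3 (2) were not compared. The members and all lists were chosen with earlier results of these data known. All 44 members could be named. From each context list, genes past an adjusted p of 0.05 and a fold of 1.5 were named, at most 5 in each direction, or, with none past the fold, at most 3 by smallest p.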

Additional observations from a re-analysis of the deposited data

How the results depend on the processing

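Of the 14 members called, 8 kept their call in all 16 alternatives: KDM4B, KDM3A, PLOD2, P4HA1, EGLN3, PLOD1, ALKBH5 and EGLN2. Over all genes, 3691 of 12941 were called in either direction in the fit reported and 3994 of 12941 by library size alone. The numbers were 2685 of 12863 with the GC trend removed and 2863 of 13114 without control 1. How many of all called genes kept their call in every alternative was not computed. Of the 29 not called, 9 were called in the same direction in at least 1 alternative: KDM2A, KDM5A, KDM5C, ALKBH3, ALKBH8, FTO, EGLN1, P4HA2 and OGFOD1. Scaling by library size alone, which moved the median of all genes to 0.06, gave 9 members higher, 0 lower past the fold of 1.5 and a median of -0.0027 for the other members. With the GC trend removed there were 2 lower past the fold, KDM3A and PLOD2 but not KDM4B, 2 other members lower and a median of -0.00038 for the others. With the length trend removed there were 2 past the fold, KDM4B and KDM3A. With the broad list of hypoxia-responsive members, 3 other members were lower, with a median of -0.025. Leaving out each sample gave 0 to 2 members lower past the fold, 2 to 4 other members lower and a median of -0.080 to -0.010 for them. None of the members that changed sign had an adjusted p below 0.05 in the fit reported except ASPH. KDM3B was at 0.041 by library size alone, 0.017 with the GC trend removed and -0.042 to 0.014 on leaving out a sample. KDM8 was at 0.022 by library size alone, 0.0054 after the length correction, 0.096 after the GC correction and -0.098 to 0.060 on leaving out a sample. PLOD3 was at 0.017 by library size alone and 0.14 with the GC trend removed, which also gave 0.017 for KDM5C and -0.0024 for ASPH. HIF1AN was at -0.031 with the length trend removed. On leaving out a sample, KDM4C ranged from -0.23 to 0.045 and ALKBH2 from -0.22 to 0.0030. Why these values moved was not tested. Same-numbered samples did not deviate together (r = -0.14, -0.07 and -0.02 over 10169 genes), so expression showed no pairing by number. With 3 samples a group, this cannot tell whether same-numbered samples were handled together. With the replicate number as a block, 11 members were lower, 2 higher and 1 past the fold, 6 hypoxia-responsive and 5 other members were lower, and the medians were -0.34 and -0.06. A biological coefficient of variation of 0.053 and 3 samples a group limit what scarce members such as KDM4D, KDM8 and KDM4C can show.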

Other observations

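Of 16 other tested genes for 2-oxoglutarate dioxygenases outside the set, 2 were lower and 2 higher in edgeR's test (median log2 fold change 0.02). HR, a histone demethylase of hair follicle cells, fell from 34.9 to 16.02 CPM, a log2 fold change of -1.13. Of 16 writers and readers of N6-methyladenosine, the mark that ALKBH5 and FTO remove, 1 was lower and 3 were higher (median 0.08). YTHDC1, a nuclear reader, was at 66.8 CPM in the controls and 95.2 CPM with RAC3. METTL14, a writer subunit, was at 27.1 and 34.9 CPM, and YTHDF3, a cytoplasmic reader, at 153 and 181 CPM.

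Histone lysine methyltransferases, which act against the JmjC demethylases, gave 2 lower and 4 higher of 23 (median 0.05). SETD7, SETD2 and KMT2C had log2 fold changes of 0.25, 0.24 and 0.17. The 2 lower genes, which fall outside the naming rule, were EHMT1 and EHMT2, at -0.15 and -0.20. Of 8 genes for DNA methyltransferases and base excision, 2 were lower and 1 was higher (median 0.05). DNMT3A, a de novo DNA methyltransferase, fell from 51.1 to 38.8 CPM and DNMT1, the maintenance enzyme, from 298 to 272 CPM, while TDG, which excises the oxidised bases that TET enzymes make, rose from 23.1 to 29.8 CPM.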
